A study of Mus musculus with 30 samples.

Results

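In all, 10 genes of the endoplasmic reticulum (ER) stress response were followed across 5 mouse tissues: the chaperones and folding enzymes Hspa5, Hsp90b1, Calr, Pdia3, Pdia4, Pdia6, Dnajb9, Sdf2l1 and Creld2, and the transcription factor gene Xbp1. They are 10 of the 17097 genes measured. Members were chosen by symbol, and each gene is represented by its brightest probe set, that is, the set of oligonucleotides with the highest mean over 30 arrays among those annotated to that symbol alone. RNA came from mice lacking ClpP (ClpP KO), a protease of the mitochondrial matrix, and from their wild-type littermates (WT), all on a C57BL/6 background, with no age or treatment given in the labels. Heart, brain, liver, skeletal muscle and testis were each measured on 3 Affymetrix arrays per genotype, so 15 were from knockout and 15 from wild-type mice, and that number limits the precision of each comparison. Values are log2 expression, so a difference of 1 is a doubling of the array signal.

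Proteins that enter the secretory pathway fold in the ER with the help of chaperones, lectins and disulfide isomerases. When unfolded proteins build up, 3 sensors in the ER membrane respond: IRE1 splices Xbp1 mRNA into the form that encodes an active transcription factor, ATF6 is cut by Golgi proteases to release another, and PERK phosphorylates the translation factor eIF2α, which favours translation of ATF4. XBP1 and ATF6 raise the transcription of ER chaperone genes, and secretory tissues such as liver carry high chaperone levels without added stress.

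A promoter sequence bound in this response, the ER stress element (CCAAT, then 9 bases of any kind, then CCACG), was looked for in the windows that RefSeq gives for mouse genes (GRCm38.p6, 250 bases before to 50 bases after the gene start, both strands). In background knowledge NF-Y binds its CCAAT end and ATF6 or XBP1 its CCACG end. All 10 genes had a window, and 5 of them (50%) held the element, against 39 of 32851 promoter windows (0.119%). The element and the genes were both chosen for their part in this response, so these shares are a description and not a test. The sequences of those 5 are shown because they carry the feature that these chaperone promoters share. The printed Hspa5 stretch lies at chr2:34771840-34772089 on the plus strand, and capitals mark the whole element, 65 to 47 bases before the start.
Hspa5: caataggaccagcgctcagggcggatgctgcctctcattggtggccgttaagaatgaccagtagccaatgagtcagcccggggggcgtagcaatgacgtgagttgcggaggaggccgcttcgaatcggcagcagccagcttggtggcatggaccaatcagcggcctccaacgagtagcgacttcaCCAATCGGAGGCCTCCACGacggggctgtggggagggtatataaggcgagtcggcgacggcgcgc
The Hsp90b1 stretch at chr10:86705508-86705681, on the minus strand, held 2 elements, 212 to 194 and 107 to 89 bases before the start, the one nearer the start in the opposite orientation.
Hsp90b1: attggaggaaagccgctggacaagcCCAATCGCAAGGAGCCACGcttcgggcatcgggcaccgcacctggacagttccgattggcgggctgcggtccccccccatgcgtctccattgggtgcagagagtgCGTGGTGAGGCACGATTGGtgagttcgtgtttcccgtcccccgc
Shorter stretches hold a single element each, at chr8:84847050-84847118 on the minus strand for Calr, chr12:17266466-17266534 on the plus strand for Pdia6 and chr15:88819495-88819563 on the plus strand for Creld2. The elements of Calr and Creld2 run in the opposite orientation to the gene.
Calr: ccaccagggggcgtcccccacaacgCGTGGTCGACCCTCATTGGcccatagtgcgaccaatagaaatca
Pdia6: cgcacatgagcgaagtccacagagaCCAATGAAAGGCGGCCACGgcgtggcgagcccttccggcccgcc
Creld2: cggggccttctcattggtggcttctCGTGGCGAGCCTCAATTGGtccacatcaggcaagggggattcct

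Written in one orientation, with capitals on the CCAAT and CCACG ends, the 6 elements have the ends that the search fixed, and the 9 bases between them vary from gene to gene.
Hspa5: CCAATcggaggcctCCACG
Hsp90b1 far: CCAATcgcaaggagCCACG
Hsp90b1 near: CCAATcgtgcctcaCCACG
Calr: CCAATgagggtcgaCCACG
Pdia6: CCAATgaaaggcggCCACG
Creld2: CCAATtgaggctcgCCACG
The windows of Pdia3, Pdia4, Dnajb9, Xbp1 and Sdf2l1 held no exact match, which says only that these letters are not in these windows. None of the 10 windows held the ER stress element II (ATTGG, any 1 base, then CCACG), found in 12 windows in all (0.0365%), or TGACGTGG, an XBP1 and ATF6 element found in 222 (0.676%). The CCACG end by itself, which overlaps the full element, was in 8 of 10 windows (80.0%) and in 32.8% of all windows. Among other ER folding factors 3 of 28 windows held the full element (10.7%), and among genes of ER-associated degradation 2 of 17 (11.8%).

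**Figure D1:**
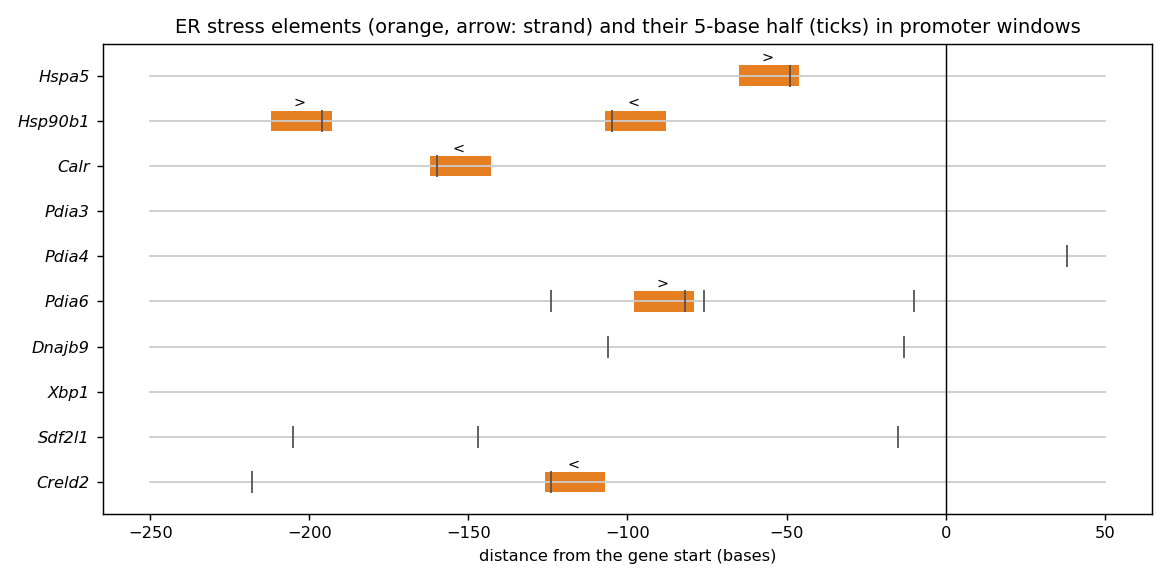
Promoter windows of the 10 genes, drawn to scale with distance from the gene start in bases on the x axis and 1 gene per row. Orange boxes are ER stress elements, the arrow giving their orientation, and ticks are the 5-base end alone. Boxes appear in 5 rows, with 2 boxes for Hsp90b1.

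Across the arrays, medians lay between 3.24 and 3.38, values between 1.73 and 14.07, and 5168 genes had a mean of at least 6. Clpp averaged between 3.11 and 3.65 in the knockout groups and between 6.38 and 9.18 in the wild-type groups. Defining markers of hepatocytes, neurons and glia, skeletal fibres and cardiomyocytes were high in their own tissues, apart from Myl4 and Myl7, which were uneven among the heart arrays. A testis array and a muscle array carried transcripts of other tissues. The median of 4 epididymis markers was 10.6 on testis WT replicate 3, against 2.60 to 2.66 on knockout testis arrays and 2.76 as the lowest wild-type value. The median of 10 elongating spermatid markers was 5.60 on muscle WT replicate 1. Testis and muscle comparisons of the 10 members, and their covariation, were computed with and without these 2 arrays. The gene lists in testis and muscle were read from all 30 arrays only. Alb, a hepatocyte marker, was uneven among the heart arrays, from 3.19 on WT replicate 3 to 8.33 on KO replicate 1. Heart arrays were left out only 1 at a time.

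Of the 10 genes, 9 had a mean over the arrays of at least 6. Pdia3, the disulfide isomerase ERp57 that works with the lectin chaperones (chr2:121413902-121438687, 1 probe set), averaged 3.85, close to the array medians, so its values bear little on the transcript. Its group means ran from 3.51 in knockout muscle to 4.35 in wild-type brain.

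In wild-type mice, most of the chaperone transcripts were highest in liver and lowest in muscle, while testis had the highest Creld2 and Sdf2l1 and the lowest Xbp1. All 10 genes were higher in liver than in the mean of the other 4 wild-type tissues, where 25.5% of all genes and 37.8% of genes with a mean of at least 6 were called higher. In muscle 8 were lower, against 37.4% of all genes. In brain 8 were lower and 2, Pdia3 and Xbp1, were higher, against 46.5% and 28.1% of all genes. In testis 6 were higher and 3 lower, against 32.1% and 40.7%, and in heart 3 (Calr, Sdf2l1 and Creld2) were lower, against 33.6%. Comparisons between tissues depend on scaling: centring each array on its median moved the median of all genes by -0.46 in testis, 0.30 in liver, 0.28 in muscle, -0.23 in brain and 0.11 in heart, and quantile normalization moved it by -0.15 in testis. All 10 remained higher in liver under each of the 5 alternatives tried. With median centring 2 genes, Creld2 and Sdf2l1, were called higher in testis, and with quantile normalization 4 were lower in brain.

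Hspa5 encodes BiP, the HSP70 chaperone of the ER lumen that also holds the sensors inactive (chr2:34772090-34776529). Its wild-type level was 11.29 ± 0.19 in liver, 10.71 ± 0.12 in testis, 10.59 ± 0.20 in heart, 10.09 ± 0.19 in brain and 9.31 ± 0.063 in muscle (SD, n = 3 arrays each). Testis and heart did not differ beyond their spread (0.12 ± 0.15, SE, limma adjusted p = 0.508), and every other neighbour in this order did. Between the 10 pairs of wild-type tissues, 35.9% to 69.1% of all genes were called. Hsp90b1, the HSP90 of the ER (GRP94, chr10:86690841-86705444), ran in the same order, from 10.63 ± 0.21 in liver through 9.89 ± 0.15 in testis to 8.62 ± 0.021 in muscle, and its heart and brain levels did not differ (adjusted p = 0.436). Hspa5 and Hsp90b1 were higher in testis than in the mean of the other wild-type tissues by 0.39 and 0.34, and with median centring these differences turned to -0.068 and -0.11, neither called.

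Calr, the calcium-binding lectin chaperone calreticulin (chr8:84842088-84846931), stood at 10.83 ± 0.11 in liver, 10.28 ± 0.20 in testis and 8.93 ± 0.039 in muscle, with brain and heart, at 9.67 and 9.66, not differing beyond their spread. Among the disulfide isomerases, Pdia6 (P5, chr12:17266589-17284785) stepped down through all 5 tissues, from 9.76 ± 0.038 in liver through testis, heart and brain to 7.67 ± 0.33 in muscle, each step passing the test. Pdia4 (ERp72, chr6:47796141-47813512) was set apart by liver, at 8.85 ± 0.22 there against 5.95 ± 0.38 in heart, the next tissue, and it exceeded the mean of the other 4 by 3.19 ± 0.20. Below liver no pair of neighbours differed for Pdia4 (adjusted p from 0.0556 to 0.845).

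Dnajb9 encodes ERdj4, a J-domain partner of BiP (chr12:44205897-44210068). It varied least between tissues among the bright members, from 8.39 ± 0.44 in liver to 7.79 ± 0.027 in brain, and no neighbours in its order differed. Xbp1 (chr11:5520641-5525993) was at 10.88 ± 0.24 in liver, 10.07 ± 0.29 in brain, 9.64 ± 0.17 in heart, 9.41 ± 0.030 in muscle and 7.51 ± 0.58 in testis. The step down to testis was 1.90 ± 0.19 (adjusted p = 1.596e-09), while brain and heart, and heart and muscle, did not differ.

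The last pair of genes had another order, with testis first. Creld2, an ER-resident protein induced by ER stress (chr15:88819646-88826681), was at 10.46 ± 0.034 in testis, against 8.44 ± 0.34 in liver, the next tissue, and 6.30 ± 0.20 in muscle. Sdf2l1, which associates with BiP and its J-domain partners (chr16:17130138-17132383), was at 8.74 ± 0.39 in testis, against 7.89 ± 0.29 in liver and 4.98 ± 0.086 in muscle. In testis they exceeded the mean of the other 4 tissues by 3.36 ± 0.16 and 2.62 ± 0.21, whereas Xbp1 was below it by a difference of -2.49 ± 0.15.

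**Figure D2:**
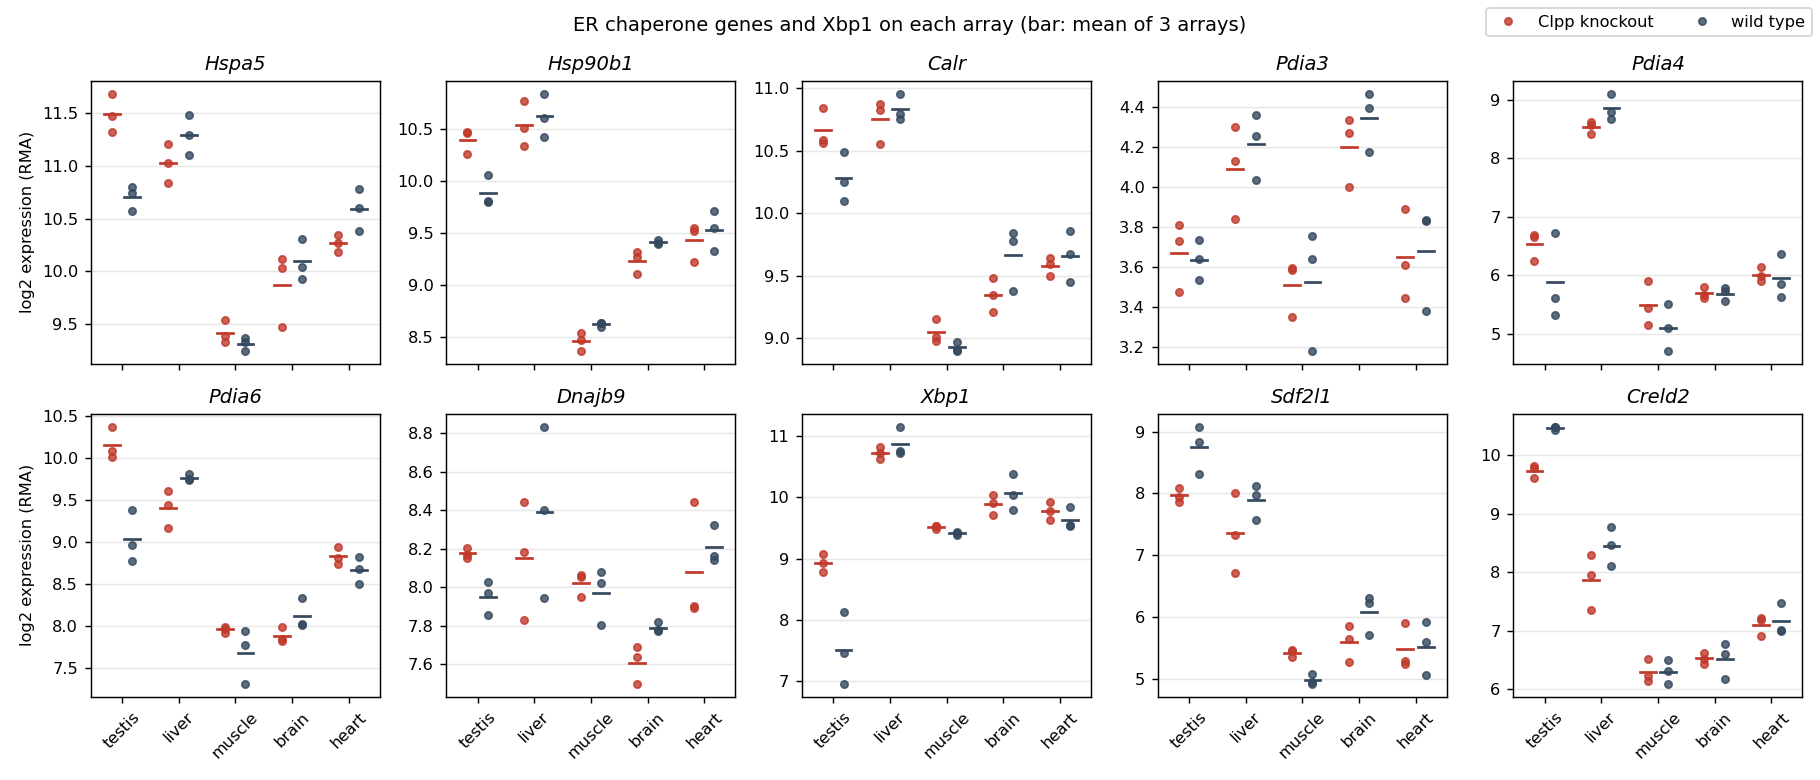
Log2 expression of each gene (y axis, own scale per panel) on each of 30 arrays by tissue (x axis), with knockout in red to the left of wild type in dark blue and bars at the mean of 3 arrays. The genotypes separate in testis for Hspa5, Hsp90b1, Calr, Pdia6, Dnajb9, Xbp1, Sdf2l1 and Creld2, and Creld2 and Sdf2l1 are highest there.

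The main comparison asked how loss of ClpP moved these transcripts in each tissue. In testis, 6 genes rose (Hspa5, Hsp90b1, Calr, Pdia4, Pdia6 and Xbp1), Creld2 and Sdf2l1 fell, and Pdia3 and Dnajb9 did not pass the test. In liver, muscle, brain and heart none of the 10 was called. Testis changed broadly: 32.8% of all genes were called higher and 23.4% lower, and of genes with a mean of at least 6, where 9 of the 10 members lie, 62.9% were higher and 17.1% lower. The shares among the members are near this background. The median change was 0.45 over the 10 genes, 0.015 over all genes and 0.69 over genes with a mean of at least 6.

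Xbp1 had the largest rise of the 10. On the knockout testis arrays it read 9.07, 8.94 and 8.79, against 6.96, 7.46 and 8.13 on the wild-type arrays. The genotypes did not overlap, as for 6 of the 10 genes with every knockout array above and 2 with every one below (35.3% and 28.2% of all genes). The wild-type arrays were spread more widely, and replicate 3 was the highest of them. The difference was 1.42 ± 0.19 (SE, n = 3 arrays per genotype, limma adjusted p = 4.85e-07), a fold change of 2.67. Of its other probe sets, 2 bright ones gave 1.49 and 0.87, both called, and a dim one at the array background gave 0.091. The files do not assign these probe sets to the spliced or unspliced form of the mRNA. In knockout testis Xbp1, at 8.93, was still below every wild-type mean of the other tissues.

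Pdia6 rose next most, with 10.01, 10.37 and 10.08 on knockout arrays, against 8.96, 8.77 and 9.39 on wild-type arrays. The difference was 1.12 ± 0.16 (adjusted p = 8.39e-07). Hspa5 read 11.48, 11.69 and 11.33 in knockout testis, against 10.58, 10.75 and 10.80 in wild-type testis, a difference of 0.79 ± 0.15 (adjusted p = 6.57e-05). Both genes were fully separated between genotypes, and the knockout testis mean was their highest of all 10 groups. The second Hspa5 probe set gave 0.84.

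Hsp90b1 stood at 10.48, 10.47 and 10.26 on knockout arrays, against 9.81, 9.80 and 10.06 on wild-type arrays, and differed by 0.51 ± 0.13 (adjusted p = 0.00101). Its second probe set gave 0.96. Calr read 10.59, 10.85 and 10.56, against 10.10, 10.25 and 10.49 on wild-type arrays. The groups nearly touched, and the difference was 0.38 ± 0.13 (adjusted p = 0.0149). That call for calreticulin was lost with its second probe set (0.31, adjusted p = 0.1001), with testis fitted alone (adjusted p = 0.0536), without testis KO replicate 2 (0.0957) and without testis WT replicate 1 (0.0938).

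Pdia4 had 6.69, 6.65 and 6.25 in knockout testis, against 5.61, 5.33 and 6.72 in wild-type testis. Its genotypes overlapped, since testis WT replicate 3, the array with epididymis transcripts, was above every knockout array. The difference of 0.64 ± 0.26 passed the test (adjusted p = 0.0366), and the call was lost with testis fitted alone (adjusted p = 0.158). It was also lost without testis KO replicate 1 (adjusted p = 0.114), KO replicate 2 (0.103) or WT replicate 1 (0.152), and without WT replicate 2, where the difference was 0.37 (0.275). Without the 2 arrays that held other tissues' transcripts it was 1.06 (adjusted p = 0.000109), and for Xbp1, Pdia6, Hspa5, Hsp90b1 and Calr the testis difference was then 1.72, 1.29, 0.83, 0.60 and 0.49, all called. Dnajb9 was above wild type on all 3 knockout arrays, at 8.15, 8.17 and 8.21, against 7.85, 8.03 and 7.97, but the difference of 0.22 (95% interval -0.12 to 0.57) was not called. For Pdia3 the difference was 0.033 (interval -0.30 to 0.37).

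Creld2 and Sdf2l1 moved the other way. Creld2 read 9.61, 9.78 and 9.81 on knockout testis arrays, against 10.48, 10.48 and 10.42 on wild-type arrays, and fell by 0.73 ± 0.20 on the log2 scale (adjusted p = 0.00248). It was still higher in knockout testis, at 9.73, than in any group of another tissue. Sdf2l1 read 7.95, 7.86 and 8.09, against 8.84, 8.32 and 9.08 on wild-type arrays, and fell by 0.77 ± 0.26 (adjusted p = 0.0141). Every knockout array was below every wild-type array for both genes. Without testis WT replicate 3 the Sdf2l1 difference was -0.61 and no longer called (adjusted p = 0.0815).

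Markers of testis cell types moved with these changes. All 10 elongating spermatid markers fell, their median being 7.35 to 8.45 on knockout arrays and 11.9 to 12.5 on wild-type arrays, and so did all 9 round spermatid markers (5.57 to 7.40, against 10.1 to 10.5). Of 9 spermatocyte markers 4 fell and 3 rose, with medians of 7.59 to 8.03 against 8.77 to 9.29. All 10 Sertoli cell markers rose (6.57 to 6.92, against 4.86 to 4.90), as did all 8 Leydig cell markers (9.01 to 9.63, against 7.30 to 7.94), 7 of 10 spermatogonium markers and 10 of 11 macrophage markers. In whole tissue, fewer cells of a type and less RNA per cell cannot be told apart, and the part of cell makeup in the chaperone values was not tested. Markers of pancreatic acinar and plasma cells, which are rich in ER, had medians of at most 2.98 on every testis and heart array.

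**Figure D3:**
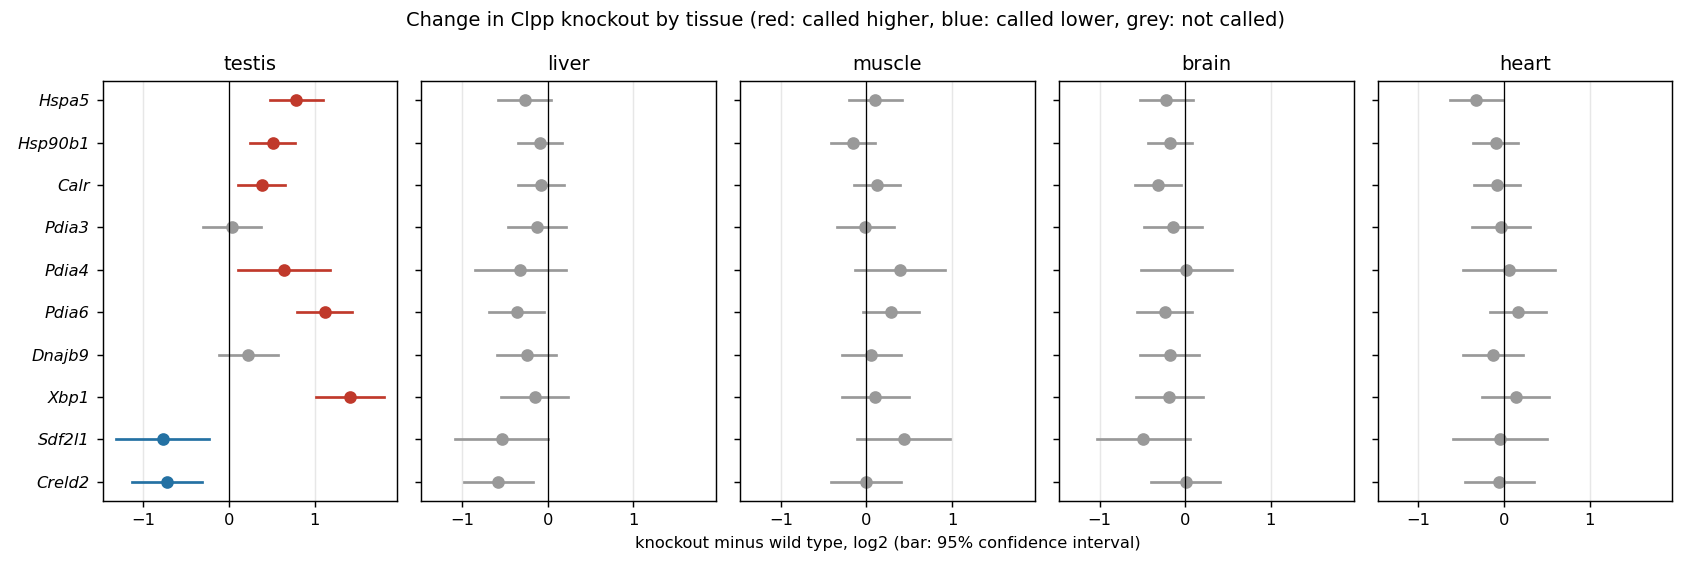
Knockout minus wild-type difference in log2 expression (x axis) for each gene (rows) in 5 tissues (panels), with 95% confidence intervals from the fit of 30 arrays. In testis 6 genes are called higher (red) and 2 lower (blue), and in the other 4 tissues all points are grey, that is, not called.

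In liver, where most of these genes were highest, all 10 differences were below 0, with a median of -0.26, and none was called by limma, against 2.42% of all genes called in either direction. At an unadjusted p under 0.05 there were 2, Creld2 and Pdia6, beside 2246 of all 17097 genes. Creld2 read 7.35, 8.29 and 7.96 in knockout liver, against 8.46, 8.77 and 8.10 in wild-type liver, a difference of -0.58 ± 0.20 (adjusted p = 0.141). Leaving out liver KO replicate 2, the highest knockout array, made it -0.79 and called (adjusted p = 0.0408), and leaving out liver KO replicate 1, the lowest, made it -0.32 (0.626). Pdia6 read 9.17, 9.60 and 9.44, against 9.75, 9.81 and 9.73 on wild-type arrays (-0.36 ± 0.16, adjusted p = 0.297), and Pdia4 8.61, 8.57 and 8.42, against 8.78, 9.10 and 8.67 (-0.32 ± 0.26, adjusted p = 0.717). These 2 isomerases had every knockout array below every wild-type array, as 8.8% of all genes did in liver. Hspa5 differed by -0.27 ± 0.15, and over the 10 genes the 95% intervals ran from -1.08 for Sdf2l1 to 0.24 for Xbp1.

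In heart none was called, against 2.18% of all genes. Hspa5 alone passed at an unadjusted p under 0.05, beside 2361 of all 17097 genes. It read 10.19, 10.27 and 10.35 in knockout heart, against 10.38, 10.60 and 10.78 in wild-type heart. The brightest Hspa5 probe set was thus lower on every knockout array, as for 11.6% of genes, with a difference of -0.32 ± 0.15 (adjusted p = 0.336), while the second probe set gave -0.083 ± 0.18 (adjusted p = 0.950 over all probe sets). Xbp1 differed by 0.14 ± 0.19 and Hsp90b1 by -0.098 ± 0.13, and intervals over the 10 genes ran from -0.63 for Hspa5 to 0.59 for Pdia4.

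In brain none was called, against 0.415% of all genes, and 8 of 10 differences were below 0 with a median of -0.18. The median was 0.016 over all genes and -0.003 over genes with a mean of at least 6. These signs are not independent either. Calr, at -0.32 ± 0.13, was the 1 member with an unadjusted p under 0.05 (adjusted p = 0.528), beside 1353 of all 17097 genes. Its second probe set gave -0.078 ± 0.16 (adjusted p = 0.997 over all probe sets). Hsp90b1, Pdia6 and Dnajb9 had all knockout arrays below all wild-type arrays, as 6.62% of genes did. Intervals ran from -1.03 for Sdf2l1 to 0.54 for Pdia4. In muscle none was called, against 1.54% of all genes, and none had an unadjusted p under 0.05, beside 2182 of all 17097 genes. Sdf2l1 read 5.45, 5.46 and 5.35 in knockout muscle, against 4.92, 4.95 and 5.08 in wild-type muscle, fully separated but not called (0.44 ± 0.26, adjusted p = 0.536), at a level well under that in testis or liver. Calr and Xbp1 were also above wild type on all muscle arrays, which held for 9.36% of genes, and intervals ran from -0.42 for Hsp90b1 to 0.98 for Sdf2l1.

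Averaged over the 4 tissues other than testis, none of the 10 was called, against 4.02% of all genes. An unadjusted p under 0.05 was reached by 2, Hspa5 at -0.18 ± 0.075 (unadjusted p = 0.0265, adjusted p = 0.196) and Hsp90b1 at -0.13 ± 0.063 (0.0459 and 0.263). Of all 17097 genes, 3115 reached it. Averaged over all 5 tissues, Xbp1 (0.26 ± 0.085, adjusted p = 0.0183) and Pdia6 (0.19 ± 0.070, adjusted p = 0.0341) were called higher and Creld2 (-0.27 ± 0.088, adjusted p = 0.0185) lower, against 33.6% of genes in either direction. For Xbp1 and Pdia6 the mean without testis was -0.024 and -0.038. The Pdia6 call was lost (adjusted p from 0.0545 to 0.0664) without testis KO replicate 2, testis WT replicate 1 or 2, liver KO replicate 2, muscle WT replicate 1, brain KO replicate 1, brain WT replicate 1 or 2, heart KO replicate 3 or heart WT replicate 1. With the mean of all probe sets the Pdia6 value was 0.10 (adjusted p = 0.178), and the Creld2 call was lost with quantile normalization (0.0820).

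Whether the knockout effect itself differed between tissues was tested with a moderated F test, which called 52.3% of all genes. It called Pdia6 (adjusted p = 2.28e-05), Xbp1 (6.71e-05), Hspa5 (0.000325), Hsp90b1 (0.00742) and Calr (0.0262). Sdf2l1 (0.0502) and Creld2 (0.0556) were just outside the threshold, and passed it in 16 and 12 of 40 alternatives. Pdia4, Dnajb9 and Pdia3 were further from it, though Pdia4 was called without testis WT replicate 3 (0.00460). The testis effect exceeded the mean effect of the other 4 tissues by 1.44 ± 0.21 for Xbp1, 1.15 ± 0.17 for Pdia6, 0.96 ± 0.17 for Hspa5, 0.65 ± 0.14 for Hsp90b1 and 0.47 ± 0.15 for Calr, all called, against 55.5% of genes called in either direction. For Creld2 it was below that mean (-0.57 ± 0.22, adjusted p = 0.0301), whereas for Sdf2l1 the same difference was -0.61 ± 0.29 and not called (adjusted p = 0.0810). The Calr call in the F test was lost in 10 of 40 alternatives, among them its second probe set (adjusted p = 0.551) and leaving out testis KO replicate 2, testis WT replicate 1 or 2, brain KO replicate 3, or brain WT replicate 2 or 3 (0.0534 to 0.0817).

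Other genes of the pathway were read from lists. In knockout testis each count stands beside 32.8% higher and 23.4% lower among all genes, and 62.9% and 17.1% among genes with a mean of at least 6. Of 23 other ER folding factors 14 rose and 3 fell there, with a median change of 0.65. Among them were Pdia5, a disulfide isomerase, at 8.77 ± 0.20 in knockout and 7.24 ± 0.24 in wild-type testis (SD, n = 3 each), Ppib, an ER prolyl isomerase, at 9.69 ± 0.14 and 8.31 ± 0.62, and P4hb, the founding disulfide isomerase, at 9.72 ± 0.16 and 8.36 ± 0.53. Of 18 genes of ER-associated degradation, which clears misfolded proteins, 9 rose and 3 fell (median 0.32), with Edem1 up by 1.40 ± 0.14 and Derl1 down, at -1.29 ± 0.14. Of 22 translocation and N-glycosylation genes 14 rose and 4 fell (median 0.57), led by Sec63 (1.65 ± 0.14) and the translocon-associated subunit Ssr3 (1.598 ± 0.17). These medians are read beside 0.69 for all genes with a mean of at least 6.

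Against the same background, 9 of 12 genes listed with the sensors and their proteases rose and none fell in testis (median 1.09). Among them were Ern1, which encodes IRE1 and cuts Xbp1 mRNA (1.06 ± 0.26), and Mbtps1 and Mbtps2, the proteases that cut ATF6 (1.36 ± 0.13 and 1.52 ± 0.11). The list also holds Creb3 (1.81), Creb3l1 (0.37) and Creb3l2 (1.13), all called higher, and Creb3l3 and Wfs1, not called. These are not among the sensors or proteases described above. Of 17 genes listed for the PERK, ATF4 and CHOP branch 9 rose and 1 fell in testis (median 0.75, beside 0.69 for the bright genes). Atf4 itself was up by 1.77 ± 0.15 and the amino acid transporter subunit Slc3a2 by 2.06 ± 0.14. The arrays do not measure PERK activity, and its part in these changes was not tested.

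In heart, 14 of the same 17 genes had an unadjusted p under 0.05, beside 2361 of all 17097 genes. Of the 17, 10 were called higher and none lower, with a median of 1.09, against 1.11% of all genes called higher. Leaving out each heart array in turn, an alternative added after the data were seen, gave 8 to 12. Asns, asparagine synthetase, was at 8.05 ± 0.64 in knockout and 3.86 ± 0.42 in wild-type heart (4.195 ± 0.45, adjusted p = 1.31e-06), and Atf5, a transcription factor, at 9.24 ± 0.50 and 6.80 ± 0.34. Phgdh, of serine synthesis, differed by 2.71 ± 0.30, and Chac1, a glutathione-degrading enzyme, by 2.58 ± 0.53. In the same hearts none of the 10 chaperone genes, 23 folding factors, 18 degradation genes, 22 translocation genes or 12 sensor-list genes was called. An unadjusted p under 0.05 was reached by 1, 3, 1, 5 and 1 of them. It was reached by 2361 of all 17097 genes and by 896 of the 5168 with a mean of at least 6. Neither the difference between these lists nor the part of PERK in the heart changes was tested. Fibroblast markers had a median of 6.93 to 9.22 on knockout and 7.07 to 7.90 on wild-type heart arrays, macrophage markers 5.93 to 6.67 and 5.63 to 5.80, while Alb, a hepatocyte marker, was at 6.76 ± 1.66 and 4.04 ± 1.30 (2.72 ± 0.74, adjusted p = 0.0514). Myl7, a light chain of atrial myosin, read 3.59, 12.6 and 12.8 on knockout heart arrays, against 7.42, 3.81 and 2.95 on wild-type arrays (4.95 ± 1.36, adjusted p = 0.0552). Myl4, another atrial light chain, averaged 9.42 ± 5.27 and 5.53 ± 1.92 (adjusted p = 0.163). It read 3.34, 12.4 and 12.5 on knockout arrays, against 7.75, 4.49 and 4.36 on wild-type arrays. For Alb, Myl7 and Myl4 the genotypes overlapped and none was called. Knockout replicates 2 and 3 were far above the other heart arrays for both Myl7 and Myl4. Nppa, another cardiomyocyte marker, was also highest on those 2 arrays (13.06 and 13.14). It was at 9.30 on knockout replicate 1 and at 9.64 to 11.06 on wild-type arrays. The part of these markers in the heart values was not tested.

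**Figure D4:**
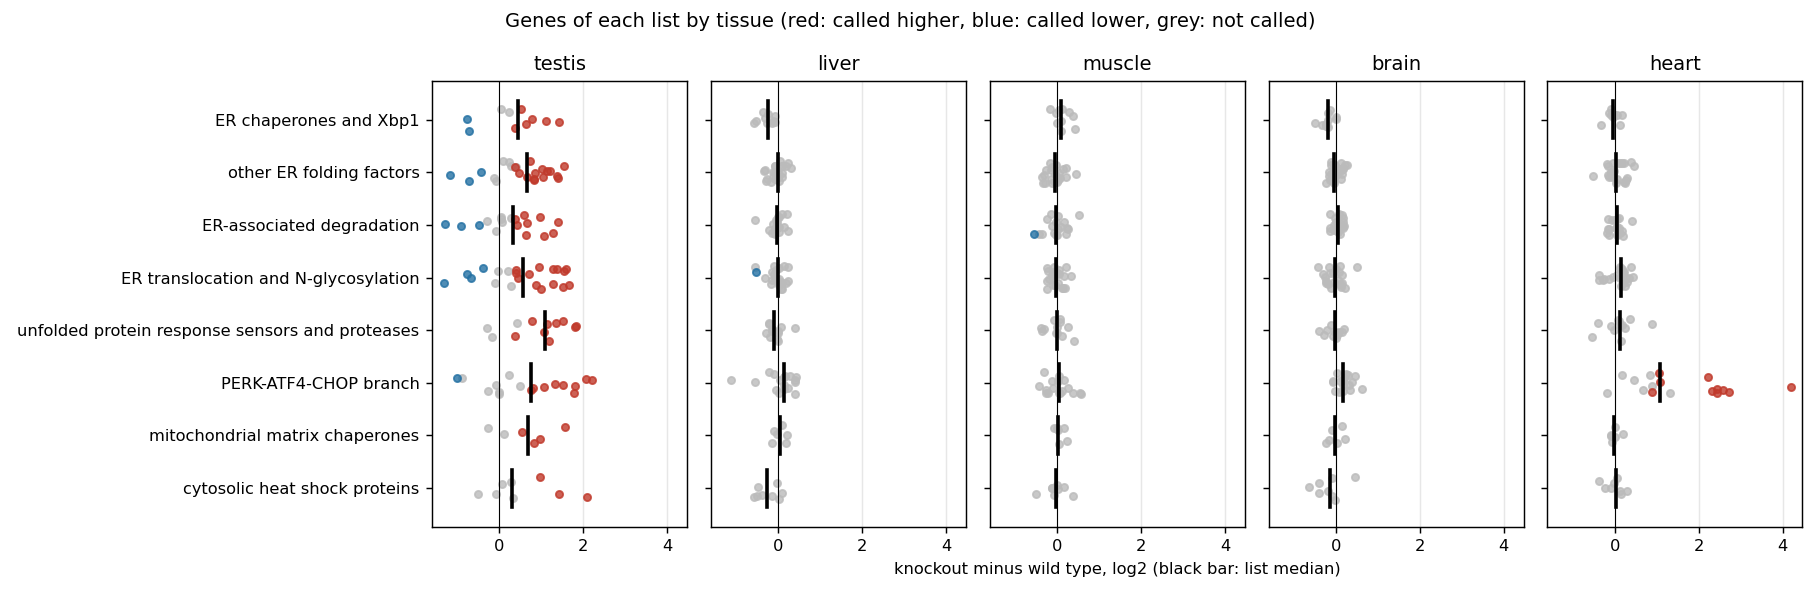
Knockout minus wild-type log2 difference (x axis) of each gene (points) in 8 gene lists (rows) and 5 tissues (panels), called higher in red, called lower in blue and not called in grey, with a black bar at the list median. Red points fill most testis rows, and in heart they appear in the PERK, ATF4 and CHOP row, whose median is 1.09, while the chaperone row has a median of -0.050.

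The members were then set against each other. Over the 10 group means, which share tissues and libraries, the genes most like Hspa5 among 5167 genes with a mean of at least 6 were N4bp2 (Pearson r = 0.988), Skap2 (0.968), Hsp90b1 (0.966), Pdia6 (0.965) and Calr (0.959). So 3 of the 5 closest genes were chaperones of the same set. Sdf2l1 (0.809, rank 132), Creld2 (0.773, rank 178), Pdia4 (0.738, rank 232) and Dnajb9 (0.620, rank 497) were less like it, and Xbp1 (0.069, rank 2150) shared little of its pattern. Xbp1 was most like Zbtb33 (0.993), Bcap31 (0.991), Nbr1 (0.988), Glud1 (0.988) and Ppa1 (0.982).

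Differences among arrays of one group were compared next. Over the 30 arrays, with group means removed, 44 of 45 pairs of members had a correlation above 0, with a median of 0.41, or 0.42 over the 36 pairs without Pdia3. The median correlation of Hspa5 with the 5167 bright genes was 0.076. This background is for Hspa5 alone, and none was computed for the other members or for pairs of bright genes. The highest pairs were Pdia4 with Pdia6 (0.71), Dnajb9 with Creld2 (0.69) and Hspa5 with Calr (0.67). Next came Pdia6 with the dim Pdia3 probe set (0.65), and Pdia4 with Creld2 (-0.007) was the lowest. The gene closest to Hspa5 in this measure was Manf (0.766), an ER-resident protein induced by ER stress, followed by Tbcb (0.694), Calr (0.671), Fut8 (0.666), Ss18l2 (0.650), 4833439L19Rik (0.638), S100a6 (0.619), Tmem167 (0.613), Cflar (0.605) and Mfap3 (0.604). Sdf2l1 ranked 28, Creld2 36 and Pdia6 104. Without the 2 arrays that held other tissues' transcripts, an alternative added after the data were seen, all 45 pairs were above 0 over 28 arrays and the median was 0.34. Pdia4 with Pdia6 was then 0.46, Pdia3 with Pdia6 0.565, Dnajb9 with Creld2 0.68 and Hspa5 with Calr 0.67. Manf still came first for Hspa5 (0.759), and the median of Hspa5 with the bright genes was 0.062. These values describe how the arrays varied, with the dim Pdia3 probe set included.

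**Figure D5:**
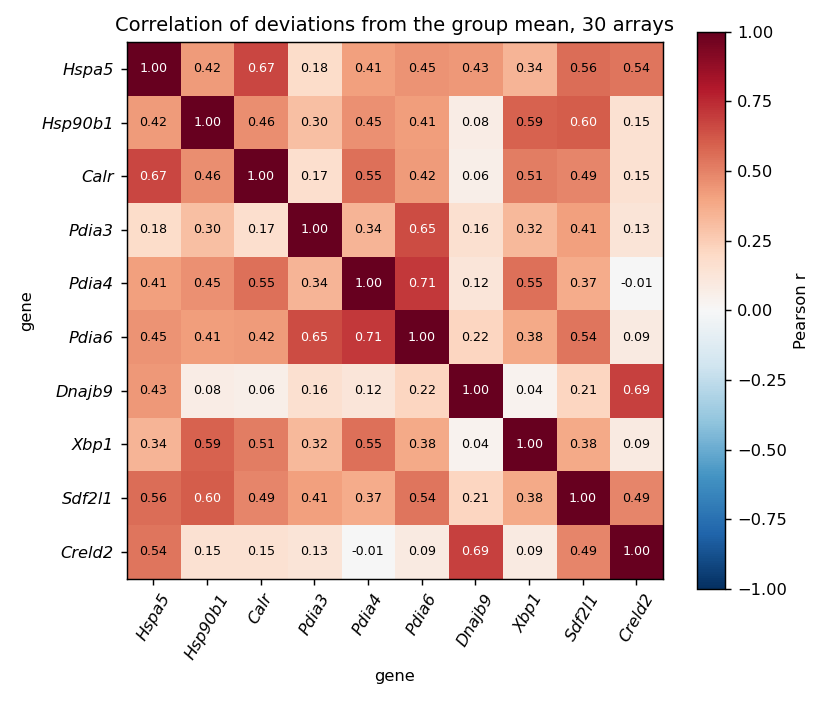
Pearson correlation between the 10 genes (both axes) of deviations from the group mean over 30 arrays, from -1 in blue to 1 in red, with the value in each cell. Nearly all cells are above 0, and the darkest off the diagonal are Pdia4 with Pdia6 (0.71) and Dnajb9 with Creld2 (0.69).

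The shared promoter element did not sort the testis changes by direction. Of the 5 genes that hold it, Hspa5, Hsp90b1, Calr and Pdia6 rose and Creld2 fell, and of the 5 without an exact match Xbp1 and Pdia4 rose, Sdf2l1 fell, and Dnajb9 and Pdia3 were not called. Over the whole genome 37 genes hold the element in a window, and 20 of them were measured, the 5 members included. In knockout testis 10 of these 20 rose and 3 fell, with a median of 0.43. The shares were 32.8% and 23.4% of all genes. Among genes with a mean of at least 6 they were 62.9% and 17.1%, with a median of 0.69. In liver 1 of the 20 was called higher, beside 0.912% of all genes, and in muscle, brain and heart none was. Besides the members, the listed genes with the element were Canx, Derl3, Dnajc3, Ero1b and Syvn1.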

How the data were processed

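RNA from 30 samples was hybridised to Affymetrix arrays. The deposited values are log2 expression per probe set, which the authors made with RMA in R 2.14.0, per the submitters' processing notes. RMA subtracts background, equalises the arrays and summarises probes, so small differences at dim probe sets are compressed. The table held 45141 probe sets, of which 28898 named 1 gene, 551 several and 15692 none, giving 17097 genes, 7180 with several probe sets. Nothing was renormalised.

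All genes were fitted together with limma 3.58.1 in R 4.3.3 (10 group means, default prior). Tests were two-sided, and called means a Benjamini-Hochberg adjusted p below 0.05 over all genes within a contrast. Errors of differences are SE. The fit was tested on simulated data. Replicates are not stated to be separate animals, so p-values measure the spread between these samples. Replicate numbers did not pair the genotypes (correlations of deviations from -0.127 to 0.243). Members, lists, named-gene rules (up to 4 called genes per list and tissue, at a level of at least 6) and alternatives were chosen with earlier results of these data known. The text names some of the genes these rules gave. Promoters came from RefSeq (GRCm38.p6) and were matched by symbol.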

Additional observations from a re-analysis of the deposited data

Results flagged for a closer look

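The knockout effect differed between tissues for 5 genes, by a moderated F test adjusted over all genes in limma: Hspa5 (adjusted p = 0.0003248), Hsp90b1 (0.007421), Calr (0.02618), Pdia6 (2.279e-05) and Xbp1 (6.714e-05). In each, testis was higher in knockout while the other 4 tissues lay within 0.36 of 0, and the F test called 52.3% of all genes. Groups of 3 arrays are too small for a search for single outlying samples.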

How the results depend on the processing

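Over the 10 genes in 5 tissues, 833 of 845 alternative values kept their side of the threshold, 11 lost a call and 1 gained one. None changed sign where a call was made. Differences that were not called sometimes changed sign and were counted as kept. For Pdia4 in heart the difference was 0.056, with alternatives from -0.104 to 0.265. In testis Hspa5, Hsp90b1, Pdia6, Xbp1 and Creld2 kept their calls under all 17 alternatives, at 0.69 to 0.91, 0.47 to 0.96, 0.66 to 1.34, 0.97 to 1.72 and -0.77 to -0.56. Without both arrays that held transcripts of other tissues 1 gene was lower in testis. Leaving out 1 array at a time gave 4 to 6 genes higher and 1 to 2 lower in testis, and 0 to 1 lower in liver. In heart it gave 8 to 12 higher of the 17 genes listed for the PERK, ATF4 and CHOP branch. In the mean over 5 tissues it gave 1 to 3 higher and 1 to 2 lower. That mean had 2 genes lower with the replicate block and with genes of a mean of at least 6, 0 lower with quantile normalization, and 1 higher with the mean of all probe sets. Among wild-type tissues, quantile normalization left 4 genes lower in brain. Median centring left 2 higher in testis, where Hspa5 was at -0.068 and Hsp90b1 at -0.114, and 1 higher in heart. The mean of all probe sets also gave 1 higher in heart, and the 15 wild-type arrays alone gave 1 lower in testis. The cause of these shifts was not tested. With the replicate block, 75 genes in all were higher and 62 lower in muscle, against 133 and 130 without it, and 30 and 11 in brain, against 40 and 31. It changed no call of a member in a single tissue. In the F test Calr lost its call (adjusted p = 0.0520), while Sdf2l1 (0.01489) and Creld2 (0.03025) gained one. A random block that took equal replicate numbers of a genotype as the same animal across tissues, which the labels do not state, had a correlation of 0.007. The dim Pdia3 probe set and 3 arrays per group limit what could be seen.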

Other observations

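Chaperones outside the ER were measured on the same arrays. In knockout testis 4 of 6 mitochondrial matrix chaperones rose and none fell, with a median of 0.69, beside 62.9% of genes with a mean of at least 6 called higher, whose median was also 0.69. Hspe1, the co-chaperonin HSP10, was at 8.88 ± 0.17 in knockout and 7.31 ± 0.30 in wild-type testis (SD, n = 3 each), Dnaja3 rose by 0.97 ± 0.13 and Hspa9, the mitochondrial HSP70, by 0.55 ± 0.11. In liver, muscle, brain and heart none of the 6 was called, and none had an unadjusted p under 0.05 in limma. Of all 17097 genes, 2246, 2182, 1353 and 2361 had one in these tissues. Of 8 cytosolic heat shock proteins 3 rose in testis, beside 32.8% of all genes and 62.9% of genes with a mean of at least 6. Among the 3 were Hspb1 (2.08 ± 0.28) and Hspa8 (1.43 ± 0.12).

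Of 3 chaperones that germ cells use in the ER, Pdilt, a testis disulfide isomerase homologue, was at 3.81 ± 0.15 in knockout and 8.03 ± 0.24 in wild-type testis, and Clgn, calmegin, was at 9.99 ± 0.34 and 9.54 ± 0.053. Pdilt thus fell while Clgn rose by 0.46 ± 0.16 (limma adjusted p = 0.0197).

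In liver, a dim Xbp1 probe set was at 4.36 in knockout and 3.95 in wild-type samples (0.41 ± 0.11, adjusted p = 0.0382 over all probe sets), while the other 3 Xbp1 probe sets gave -0.32, -0.22 and -0.15, none called. Which transcript the dim set measures was not tested.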
